A study of Homo sapiens with 21 samples.

Results

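The 34 genes described here are those of glucose breakdown and of the cell's response to low oxygen, taken from the table by gene symbol, and all 34 were found among the 23201 gene symbols that it holds. Of these, 22 act in glycolysis (2 glucose transporters, 11 genes of the steps from glucose to triose phosphates, 5 of the later three-carbon steps and 4 of the fate of pyruvate and lactate) and 12 belong to the hypoxia response (2 carbonic anhydrases, 8 other hypoxia-responsive genes and 2 HIF α subunits). RNA was sequenced from HMLE cells, an immortalized line of human mammary epithelial cells, at 7 timepoints of epithelial-to-mesenchymal transition (EMT), with 3 libraries at each. The group d0 was untreated, and the groups d1, d4, d7, d10, d15 and d20 had received TGFβ for 1, 4, 7, 10, 15 and 20 days. The TGFβ dose and isoform, the culture medium and the oxygen level were not given in the sources used here. All groups came from 1 cell line, and untreated cells were sequenced only at d0, so that time in culture and time in TGFβ cannot be told apart. The study calls the 3 libraries of a timepoint biological triplicates.

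Glycolysis converts glucose to pyruvate with a gain of ATP and NADH, and lactate dehydrogenase then uses NADH to reduce pyruvate to lactate, which leaves the cell through monocarboxylate transporters. Many of its genes are direct targets of the hypoxia-inducible factors (HIFs), whose α subunits are hydroxylated by the EGLN dioxygenases while oxygen is present, bound by VHL and degraded. When oxygen is low, or when hydroxylation is blocked, the α subunit pairs with ARNT and binds hypoxia response elements with a core of ACGTG or GCGTG. The α subunits are controlled largely as proteins, and RNA-seq measured only their mRNA.

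Values are normalised read counts, that is, reads of a gene divided by a size factor of the library. Folds are differences on the log2(value + 1) scale ± SE, and a gene was called higher or lower when the limma test gave a Benjamini-Hochberg adjusted p under 0.05 over the 13343 genes tested. The 6 comparisons with d0 share the same untreated libraries and are not independent of each other. In bulk RNA, fewer cells that express a gene and less of its RNA in each cell cannot be told apart. Libraries held 18847917 to 22667754 reads. One of the d7 libraries, the last of the 3 in the table (library c), stood apart, with a root mean square log2 difference of 0.457 to 0.472 from the other d7 libraries against 0.214 to 0.243 for all other pairs of one timepoint. The mesenchymal markers *VIM*, *FN1*, *CDH2*, *ZEB1* and *SNAI2* were called higher on all 6 days (5 of 5). Of 7 mammary epithelial markers, 2 were higher and 2 lower at d7 (34.6% and 32.6% of all genes tested), from -2.84 for *EPCAM*, an epithelial adhesion molecule, to 1.12. Leaving out d7 library c gave 4 higher and 2 lower (4915 and 4584 of the 13343 genes tested). At d20, 1 was higher and 5 lower (32.5% and 30.2% of all genes tested). Of 8 markers of fibroblast, immune and endothelial cells, *PTPRC*, *CD3E*, *DCN* and *CDH5* had at most 1 read in any library, *PDGFRA* at most 8 and *VWF* at most 13, and 2 passed the filter. *CD68* was higher at d4 (1.11), d15 (1.02) and 3 other days and not called at d10, *PECAM1* was lower on all 6 days (-2.10 at d15), and the part of other cells in the results was not tested.

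All 34 genes passed the filter on low values, and 33 differed over the course by the limma F test, against 95.9% of all genes tested. The exception was *ANKRD37* (adjusted p = 0.193). Counts of genes higher and lower than d0 were 19 and 5 at d1 (31.3% and 28.5% of all genes tested), 14 and 18 at d4 (36.9% and 35.3%), 17 and 13 at d7 (34.6% and 32.6%), 17 and 6 at d10 (37% and 30.7%), 12 and 19 at d15 (39.2% and 37.3%), and 16 and 8 at d20 (32.5% and 30.2%). Their median log2 fold change was 0.21, -0.14, 0.12, 0.20, -0.28 and 0.14 in that order, while the median of all genes lay between 0.00 and 0.03. The group thus lay below d0 at d4 and d15 and above it on the other days. The counts depended on the scaling. Setting the libraries to equal totals (rescaling) moved the median of all genes by -0.14 to -0.20. Calls in the higher and the lower direction then numbered 10 and 12 at d1 (18.3% and 50.2% of all genes). They numbered 11 and 16 at d7 (22.7% and 49.1%), 9 and 13 at d10 (21.5% and 50.5%), and 9 and 13 at d20 (19.9% and 50.8%). The group medians of d7, d10 and d20 turned to -0.07, -0.03 and -0.06. Rescaled calls at d4 were 10 higher and 19 lower (25.8% and 49.5% of all genes), and at d15 10 and 20 (30.3% and 47.2%). The rescaled group medians at d4 and d15 were -0.33 and -0.44, against -0.19 and -0.14 for all genes. The group thus lay below d0 on those days under both scalings. Quantile normalization gave 14 and 12 at d1 (25.4% and 34.8% of all genes) and 13 and 15 at d7 (29.3% and 39.8%). It gave 11 and 13 at d10 (30.4% and 35.3%), and 12 and 13 at d20 (26.8% and 37.2%). All 34 were called on at least 1 day, as were 96.8% of all genes. Of the 34 genes, 8 were called higher on all 6 days (14.3% of all genes), but 3 of them, *HK1*, *KDM3A* and *P4HA1*, lost calls on some of these days after rescaling. Another 3 (*CA9*, *ALDOC* and *PFKM*) were lower on all 6 days (8.26%), 14 were higher on one day and lower on another (28.7%), and 13 changed at least 2-fold on a day (30.4%). The heat map of fold changes gives each call.

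**Figure D1:**
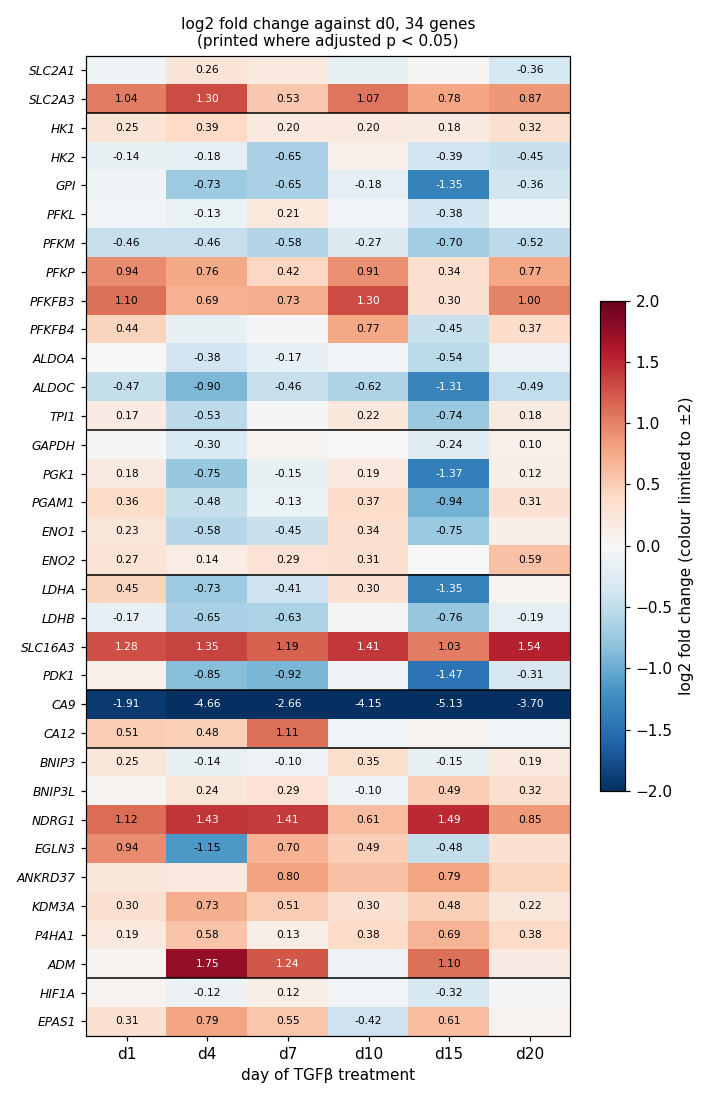
Log2 fold change against d0 of the 34 genes (rows, ordered by role) at the 6 treated timepoints (columns), with the value printed where the limma adjusted p was under 0.05 and the colour limited to ±2. *CA9* ran from -1.91 at d1 to -5.13 at d15, *SLC16A3*, *SLC2A3*, *PFKP*, *PFKFB3* and *NDRG1* were above 0 on every day, and the block from *GPI* to *PDK1* was mostly blue at d4 and d15.

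Steps between neighbouring timepoints, which do not use the untreated libraries, were read for the 22 glycolysis genes and the 12 hypoxia genes. From d10 to d15, none of the 22 glycolysis genes rose and 20 fell, with a median difference of -0.63, and the 2 not called were *SLC2A1* and *HK1* (all genes: 39.3% higher, 40.5% lower). From d15 to d20, 19 of the 22 rose and 1, *SLC2A1*, fell, with a median of 0.58 (37.7% and 36.3% of all genes). The earlier fall from d1 to d4 took 15 of the 22, while 3 rose (32% and 32.9% of all genes). Rescaling left 1 higher and 20 lower for d10 to d15, 19 and 1 for d15 to d20, and 3 and 15 for d1 to d4. From d7 to d10, 15 of the 22 rose and 3 fell, and 2 of the 12 hypoxia genes rose and 8 fell (36.2% and 35.2% of all genes). Without d7 library c these counts were 16 and 3, and 2 and 9 (5128 and 4916 of the 13343 genes tested). In the step from d4 to d7, 9 of the 22 rose and 5 fell (25.5% of all genes in each direction). Leaving out d7 library c gave 10 and 7 (3898 and 4013 of the 13343 genes tested). With all libraries, *CA9* rose in this step by 2.00 ± 0.13. Among the 12 hypoxia genes, 6 rose and 4 fell from d10 to d15, and 4 rose and 6 fell from d15 to d20. The plot of group medians shows the later glycolytic genes and the pyruvate genes at their lowest at d15, with medians of -0.75 and -1.05 against d0, on the day when the other hypoxia-responsive genes stood at 0.59.

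**Figure D2:**
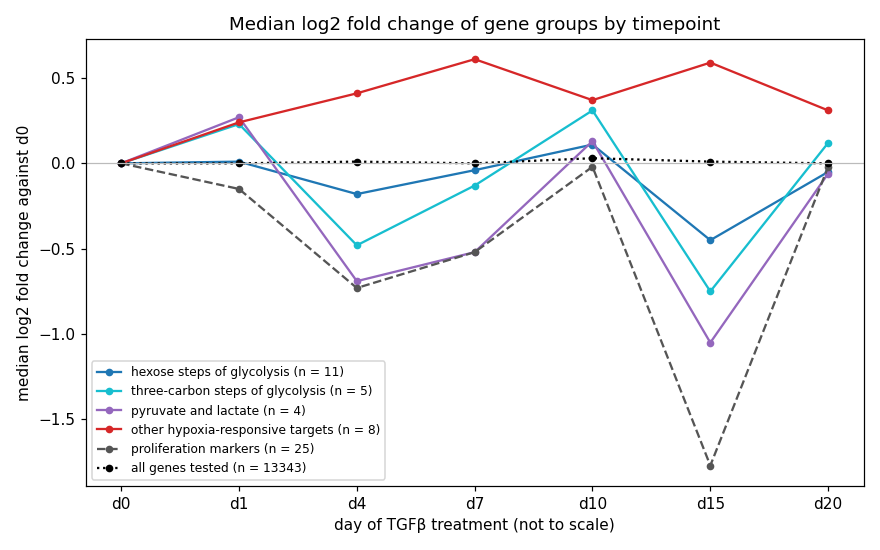
Median log2 fold change against d0 (vertical axis) of 4 groups of the genes, 25 proliferation markers and all 13343 genes tested (lines) at each timepoint (horizontal axis, not to scale). The three-carbon and pyruvate groups reached -0.48 and -0.69 at d4 and -0.75 and -1.05 at d15 and lay within 0.31 of d0 at d1, d10 and d20, and the proliferation markers stood at -0.73 at d4 and -1.77 at d15.

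The 25 proliferation markers moved with this pattern in the steps from d1 to d4, d7 to d10, d10 to d15 and d15 to d20. They did not move with it at d1. From d1 to d4, 0 markers rose and 24 fell (32.9% and 32% of all genes). From d7 to d10, 20 rose and 1 fell (36.2% and 35.2%), or 23 and 1 without d7 library c. From d10 to d15, 0 rose and 25 fell (39.3% and 40.5%), and from d15 to d20, 25 rose and 0 fell (37.7% and 36.3%). At d1, 3 of the 25 markers were higher and 12 lower than d0 (median -0.15). Of the 22 glycolysis genes, 12 were then higher and 4 lower (median 0.17), against 31.3% and 28.5% of all genes. These d1 counts are on the deposited scale. After rescaling, 7 of the 22 glycolysis genes were higher and 9 lower at d1 (median -0.02), against 18.3% and 50.2% of all genes. At d7 the median of the markers was -0.52 and that of the glycolysis genes -0.08. The summed normalised read count of the markers was 113400 to 119000 at d0, 99700 to 102100 at d1 and 68180 to 70540 at d4. It was 111800 to 112400 at d10, 36480 to 37610 at d15 and 114700 to 118100 at d20. At d4 and at d15, 25 of 25 were called lower, and 24 of 25 at d7 (35.3%, 37.3% and 32.6% of all genes tested). In d7 library c the sum was 101339 against 73013 and 75069 in the other d7 libraries. The mammary epithelial markers *KRT5*, *KRT14*, *TP63*, *CDH1*, *EPCAM*, *KRT18* and *KRT8* summed to 286410 in that library against 518604 and 486239, and at the other timepoints to between 188470 at d10 and 336002 at d0. The part of proliferation or of cell state in the changes of the glycolysis genes was not tested.

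Promoters of 4 genes are printed because they were among those that changed at least 2-fold, had a single window in the RefSeq table and differ in role and course. *EGLN3*, *CA12* and *GPI* also changed at least 2-fold and had a single window, and theirs are not printed. *CA9* and *ALDOC* were lower on all 6 days, *PGK1* was lower at d4, d7 and d15, and *ADM* was higher on those 3 days. Each run holds 250 bases before and 50 after the start of the gene on GRCh38.p14, 5′ to 3′ along the gene, and capitals mark ACGTG or GCGTG on either strand (CACGT or CACGC when read on the other). The windows are *CA9* at chr9:35673678-35673977 (plus strand), *PGK1* at chrX:78103998-78104297 (plus), *ALDOC* at chr17:28576846-28577145 (minus) and *ADM* at chr11:10304823-10305122 (plus).
CA9: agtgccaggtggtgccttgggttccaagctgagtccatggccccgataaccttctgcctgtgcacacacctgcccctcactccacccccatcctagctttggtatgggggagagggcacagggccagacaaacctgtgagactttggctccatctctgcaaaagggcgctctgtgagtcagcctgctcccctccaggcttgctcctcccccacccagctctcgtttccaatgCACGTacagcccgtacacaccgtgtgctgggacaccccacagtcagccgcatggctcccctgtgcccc
PGK1: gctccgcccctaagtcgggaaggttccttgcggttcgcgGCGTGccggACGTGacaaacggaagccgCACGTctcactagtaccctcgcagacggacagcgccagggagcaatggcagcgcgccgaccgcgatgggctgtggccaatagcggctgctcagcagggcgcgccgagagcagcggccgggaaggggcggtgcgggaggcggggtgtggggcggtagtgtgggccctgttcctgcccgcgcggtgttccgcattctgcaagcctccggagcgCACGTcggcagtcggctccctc
ALDOC: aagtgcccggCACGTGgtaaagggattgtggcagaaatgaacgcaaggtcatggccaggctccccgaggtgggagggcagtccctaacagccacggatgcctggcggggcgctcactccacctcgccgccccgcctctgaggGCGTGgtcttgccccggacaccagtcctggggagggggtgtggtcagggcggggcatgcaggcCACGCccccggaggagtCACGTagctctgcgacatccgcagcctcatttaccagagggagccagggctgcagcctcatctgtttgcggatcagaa
ADM: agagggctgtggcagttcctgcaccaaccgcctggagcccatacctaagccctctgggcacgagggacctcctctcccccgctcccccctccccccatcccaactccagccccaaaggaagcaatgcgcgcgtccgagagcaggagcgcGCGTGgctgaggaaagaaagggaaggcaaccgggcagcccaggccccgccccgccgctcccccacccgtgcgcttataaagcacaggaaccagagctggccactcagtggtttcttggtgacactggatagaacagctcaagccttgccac
*CA9* held 1 match, 18 bases before the start, *ADM* 1, *PGK1* 4, of which 3 were ACGTG, and *ALDOC* 5, of which a pair lies in one palindrome, CACGTG, that reads as ACGTG on both strands. Windows were listed for 31 of the 34 genes (not for *SLC2A3*, *BNIP3L* and *NDRG1*), and 29 of the 31 (93.5%) held a match in at least 1 window, against 70% of the 9253 tested genes with a window and 52.4% of all 27305 genes of the table. *PGAM1* and *EGLN3* held none, *GPI* held 1 and *CA12* held 2. ACGTG alone was found for 58.1% of the 31 and 32.2% of the tested genes. Counted by window, because several genes have more than 1, a match was present in 40 of 59 windows (67.8%). The share was 48.4% of all 35116 windows, those of genes not tested included. Among genes with 1 window only, 17 of 19 (89.5%) held a match, against 64.3% of 6501 tested genes. The windows of the 31 genes had a median GC content of 68.7% and those of the tested genes 64.7%, and its part in the difference was not tested. A match is a run of letters and not a measured binding site.

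Glucose enters the cell through the facilitative transporters *SLC2A1* (GLUT1) and *SLC2A3* (GLUT3). *SLC2A3* had 426, 408 and 376 in the d0 libraries, 837, 830 and 817 at d1, 1023, 1016 and 940 at d4 and 653, 506 and 603 at d7. The later libraries had 877, 840 and 829 at d10, 709, 675 and 700 at d15 and 757, 720 and 730 at d20. Every treated library exceeded every untreated one, and the d4 libraries were the highest. The log2 fold change was 1.30 ± 0.07 at d4 and 0.53 ± 0.07 at d7, its largest and smallest (limma adjusted p = 3.39e-13 and 6.42e-07). *SLC2A1* ranged in mean from 2357 ± 84.5 at d20 to 3609 ± 141 at d4 (SD, n = 3) and was called higher at d4 (0.26 ± 0.10) and lower at d20 (-0.36 ± 0.10). The d4 call was lost after rescaling (0.06), after quantile normalization (0.14) and without d0 library a or b or d4 library a or b (0.23 to 0.24), and at d7 *SLC2A1* was called higher only without library c (0.39). Per kilobase of transcript, *SLC2A3* made up 11.2% ± 1.27 (SD, n = 3) of the pair at d0 and 22.6% ± 0.285 at d20.

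Hexokinase traps glucose as glucose 6-phosphate, and *HK1* and *HK2* encode its ubiquitous and its inducible form. *HK1* was 6080, 6277 and 6200 at d0, 7641, 7332 and 7111 at d1, 8261, 7921 and 8196 at d4 and 7326, 7230 and 6726 at d7. It was 7067, 7184 and 7096 at d10, 7074, 7106 and 6825 at d15 and 7757, 7462 and 7945 at d20, above all d0 libraries throughout. The fold was small, at most 0.39 ± 0.04 at d4, and at d10 it was 0.20 as deposited but -0.03 after rescaling and -0.07 after quantile normalization. Rescaling also ended the *HK1* calls at d1 (0.06), d7 (0.01) and d15 (0.02), and quantile normalization those at d1 (0.04) and d7 (0.07). *HK2* had 1800, 1714 and 1842 at d0, 1620, 1636 and 1590 at d1, 1565, 1620 and 1542 at d4 and 1242, 1210 and 974 at d7. Later it had 1916, 1950 and 1904 at d10, 1415, 1329 and 1357 at d15 and 1318, 1295 and 1313 at d20. *HK2* was called lower on 5 days, most at d7 (-0.65 ± 0.06, limma adjusted p = 5.56e-09), and the d1 call (-0.14) was lost on leaving out any of 5 libraries (-0.12 to -0.15). The share of *HK1* in the pair per kilobase rose from 84.7% ± 0.613 at d0 to 90.9% ± 0.708 at d7 and was 85.6% ± 0.0794 at d10.

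*GPI* encodes glucose 6-phosphate isomerase, the step before phosphofructokinase. Its values were 10469, 10917 and 10990 at d0, 10084, 10225 and 10121 at d1, 6580, 6555 and 6402 at d4 and 6751, 6347 and 7606 at d7. They were 9345, 9722 and 9521 at d10, 4456, 4114 and 4118 at d15 and 8525, 8290 and 8406 at d20. All treated libraries lay below all d0 libraries, but the d1 difference did not pass the test (-0.09 ± 0.05, limma adjusted p = 0.11). It was called after rescaling (-0.28) and after quantile normalization (-0.32). The lowest level, at d15, was -1.35 ± 0.05 on the log2 scale (limma adjusted p = 2.02e-16), after -0.18 ± 0.05 at d10 and before -0.36 ± 0.05 at d20.

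Phosphofructokinase commits the sugar to glycolysis, and it has 3 subunit genes. *PFKP*, the platelet type, was 4134, 4394 and 4347 at d0, 8430, 8090 and 8248 at d1, 7363, 7031 and 7375 at d4 and 5412, 5294 and 6558 at d7. It was 8342, 7942 and 7885 at d10, 5501, 5372 and 5405 at d15 and 7365, 7418 and 7230 at d20. Every treated library was above d0, by 0.94 ± 0.05 at d1 and 0.34 ± 0.05 at d15 on the log2 scale (limma adjusted p = 2.36e-12 and 8.16e-06). *PFKM*, the muscle type, was 3821, 3848 and 3752 at d0, 2785, 2765 and 2769 at d1, 2755, 2796 and 2774 at d4 and 2618, 2630 and 2385 at d7. Then it was 3150, 3106 and 3222 at d10, 2343, 2350 and 2347 at d15 and 2682, 2687 and 2587 at d20, below d0 in every treated library, with its lowest fold at d15 (-0.70 ± 0.03, limma adjusted p = 8.58e-14). *PFKL*, the liver type, had 2912, 3185 and 3134 at d0, 3029, 2900 and 2962 at d1, 2763, 2811 and 2859 at d4 and 3696, 3648 and 3312 at d7, followed by 2999, 2997 and 2880 at d10, 2408, 2391 and 2297 at d15 and 3211, 2842 and 2890 at d20. It was called higher at d7 (0.21 ± 0.05, but 0.02 and not called after rescaling) and lower at d15 (-0.38 ± 0.05) and at d4 (-0.13, lost without d0 library b or c or d4 library a, at -0.10 to -0.12). Per kilobase, *PFKP* made up 41.9% ± 0.312 of the 3 at d0 and 62.4% ± 0.168 at d1, and *PFKM* 30.6% ± 0.89 and 17.2% ± 0.246.

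*PFKFB3* and *PFKFB4* encode the bifunctional enzymes that set the level of fructose 2,6-bisphosphate, an activator of phosphofructokinase. *PFKFB3* stood at 709, 685 and 768 at d0, 1554, 1525 and 1567 at d1, 1165, 1171 and 1156 at d4 and 1213, 1191 and 1182 at d7. Later values were 1828, 1826 and 1678 at d10, 918, 885 and 860 at d15 and 1461, 1444 and 1410 at d20. Treated and untreated libraries did not overlap on any day, with the highest values at d10 (1.30 ± 0.04, limma adjusted p = 1.89e-16) and the smallest rise at d15 (0.30 ± 0.04). *PFKFB4* was lower expressed, with means from 114 ± 5.18 at d15 to 267 ± 24.3 at d10, and was called higher at d1 (0.44), d10 (0.77) and d20 (0.37, but 0.18 and not called after rescaling) and lower at d15 (-0.45).

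Aldolase splits fructose 1,6-bisphosphate into triose phosphates. *ALDOC*, the brain type, was 3376, 3479 and 3454 at d0, 2468, 2499 and 2470 at d1, 1887, 1823 and 1821 at d4 and 2461, 2471 and 2574 at d7. It then was 2142, 2319 and 2228 at d10, 1445, 1289 and 1414 at d15 and 2427, 2496 and 2398 at d20. No treated library reached the untreated range, and the fall was deepest at d15 (-1.31 ± 0.04, limma adjusted p = 2.41e-17). *ALDOA*, the main aldolase here, was 40931, 43043 and 42811 at d0, 43441, 42232 and 42132 at d1, 32773, 32345 and 32280 at d4 and 36909, 35987 and 39771 at d7. It was 41431, 40918 and 39872 at d10, 29842, 28692 and 28443 at d15 and 41167, 39859 and 39974 at d20. *ALDOA* overlapped d0 at d1, d10 and d20 and was called lower at d4 (-0.38 ± 0.04), d7 (-0.17 ± 0.04) and d15 (-0.54 ± 0.04), and its d1 value of 0.01 became -0.18 after rescaling and -0.46 after quantile normalization, both called. Per kilobase, *ALDOA* gave 93.8% ± 0.0706 of the pair at d0 and 96.3% ± 0.186 at d15. *TPI1*, triose phosphate isomerase, had means from 14810 ± 205 at d15 to 28747 ± 266 at d10. It was lower at d4 (-0.53) and d15 (-0.74), and it was called higher at d1 (0.17), d10 (0.22) and d20 (0.18) on the deposited scale, where rescaling gave -0.03, -0.01 and -0.02.

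The three-carbon steps yield the ATP of glycolysis. *PGK1*, phosphoglycerate kinase, was 11381, 11394 and 12094 at d0, 13446, 13236 and 12837 at d1, 6946, 6992 and 6782 at d4 and 10138, 10362 and 10938 at d7. The remaining libraries had 13039, 13592 and 13162 at d10, 4588, 4483 and 4421 at d15 and 12627, 12496 and 12705 at d20. Libraries of d4, d7 and d15 lay below the untreated range and those of d1, d10 and d20 above it, although the rise was small and turned to -0.01, -0.04 and -0.08 after rescaling. At d15 the fold was -1.37 ± 0.03 (limma adjusted p = 9.82e-19), and from there to d20 *PGK1* rose by 1.49 ± 0.03 (limma adjusted p = 3.94e-18).

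*ENO1*, the main enolase, was 56766, 58385 and 59627 at d0, 69597, 68992 and 67060 at d1, 39616, 39705 and 37965 at d4 and 39025, 39786 and 49990 at d7. It was 74035, 73841 and 72668 at d10, 34942, 34640 and 34586 at d15 and 63015, 63238 and 62856 at d20. Its d4, d7 and d15 libraries lay below the untreated range, with -0.75 ± 0.06 at d15 (limma adjusted p = 3.36e-10), and it was called higher at d1 (0.23) and d10 (0.34), which rescaling left at 0.04 and 0.11, not called, and quantile normalization turned to -0.43 and -0.34. *ENO2*, the neuronal type, was 570, 571 and 579 at d0, 683, 696 and 695 at d1, 636, 612 and 650 at d4 and 723, 683 and 701 at d7. Its later values were 706, 731 and 702 at d10, 546, 557 and 614 at d15 and 895, 818 and 883 at d20. *ENO2* was not called at d15 (0.00 ± 0.05) and was highest at d20 (0.59 ± 0.05, limma adjusted p = 1e-09), and its d4 value of 0.14 was -0.05 after rescaling and not called without d4 library c (0.12). Rescaling ended the *ENO2* calls at d1 (0.08), d7 (0.10) and d10 (0.09). Per kilobase, *ENO2* made up 0.81% of the pair at d0 and 1.35% at d15.

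*PGAM1*, phosphoglycerate mutase, had means from 4497 ± 233 at d15 to 11158 ± 132 at d10. It was called higher at d1 (0.36), d10 (0.37) and d20 (0.31) and lower at d4 (-0.48), d7 (-0.13) and d15 (-0.94), and the d7 call was lost without d0 library b or c or d7 library a or b (-0.09 to -0.12). The d20 call of *PGAM1* was lost after rescaling (0.11) and after quantile normalization (0.08), and the d10 call after quantile normalization (0.09). *GAPDH*, often used as a reference gene, was itself lower at d4 (-0.30 ± 0.04, limma adjusted p = 3.13e-06) and d15 (-0.24 ± 0.04), with means from 160975 ± 1771 at d4 to 212976 ± 1149 at d20. Its call at d20 (0.10) was lost on leaving out any d0 or d20 library (0.09 to 0.11), and rescaling gave -0.10 and quantile normalization 0.00. GENCODE 29 lists 62 pseudogenes named after *GAPDH*, 39 after *BNIP3*, 13 after *PGAM1* and 6 after *LDHA*, and how reads shared with such copies were assigned was not given in the sources used here, so the levels of these genes are less certain.

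**Figure D3:**
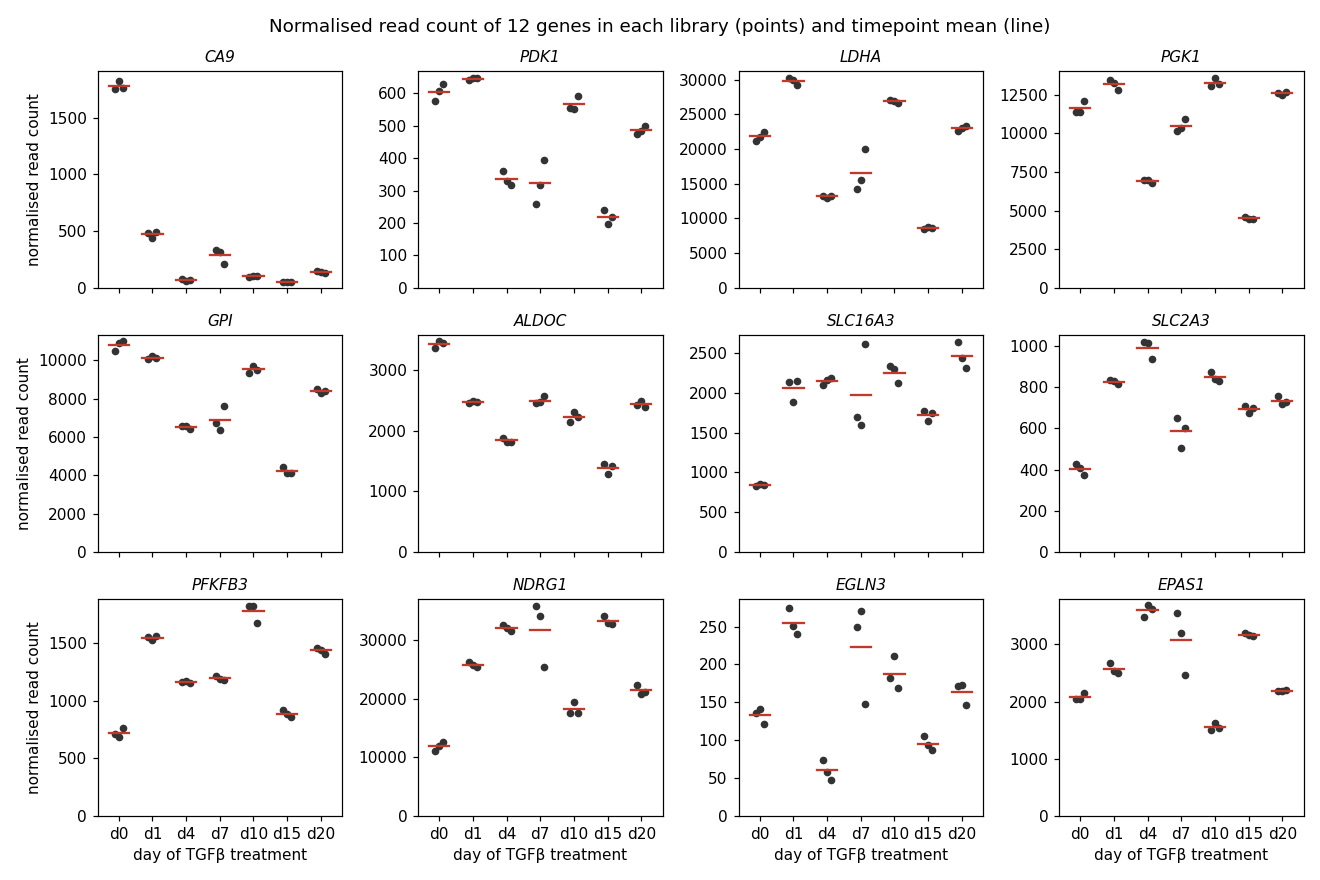
Normalised read count (vertical axis, from 0) of 12 of the genes in each of the 21 libraries (points) with the timepoint mean (red line) against day of TGFβ treatment. *LDHA*, *PGK1*, *GPI* and *PDK1* were lower at d4 and d15 than at d10 and d20, *CA9* lay between 46.1 and 494 in the treated libraries against 1756 to 1824 at d0, and d7 library c, the right-hand point of each d7 trio, stood apart for *NDRG1*, *EGLN3* and *EPAS1*.

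*LDHA* encodes the lactate dehydrogenase subunit that favours lactate formation. Its values were 21192, 21765 and 22535 at d0, 30220, 29952 and 29258 at d1, 13309, 13001 and 13194 at d4 and 14195, 15604 and 20080 at d7. They were 27160, 26896 and 26616 at d10, 8405, 8753 and 8604 at d15 and 22598, 23004 and 23339 at d20. Libraries of d1, d10 and d20 exceeded all d0 libraries, and those of d4, d7 and d15 lay below them. The d20 difference was small and did not pass the test (0.07 ± 0.07, limma adjusted p = 0.385). It was called when only d0 and d20 were fitted (0.07, limma adjusted p = 0.0264). The fold was 0.45 ± 0.07 at d1 (limma adjusted p = 1.85e-05) and -1.35 ± 0.07 at d15 (limma adjusted p = 3.22e-13). The d10 call of *LDHA* (0.30) was lost after rescaling (0.07) and after quantile normalization (0.05). From d10 to d15 *LDHA* changed by -1.65 ± 0.07 and from d15 to d20 by 1.42 ± 0.07 (limma adjusted p = 1.5e-14 and 3.21e-13).

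*LDHB*, the subunit that favours pyruvate formation, was 17488, 17361 and 17135 at d0, 15687, 15250 and 15222 at d1, 11305, 10864 and 10889 at d4 and 10374, 11305 and 11988 at d7. It was 17134, 16665 and 16692 at d10, 10138, 10371 and 10142 at d15 and 14785, 15232 and 15468 at d20. *LDHB* was never called higher, and fell by 0.76 on the log2 scale at d15 (SE 0.04, limma adjusted p = 1.98e-13). Per kilobase, *LDHA* made up 44.5% ± 1.02 of the pair at d0, 55.2% ± 0.294 at d1, 50.4% ± 0.23 at d10, 34.9% ± 0.274 at d15 and 49.1% ± 0.18 at d20. This share was highest at d1 and lowest at d15, where the libraries ranged from 34.5% to 35.1%, against 43.5% to 45.6% at d0.

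**Figure D4:**
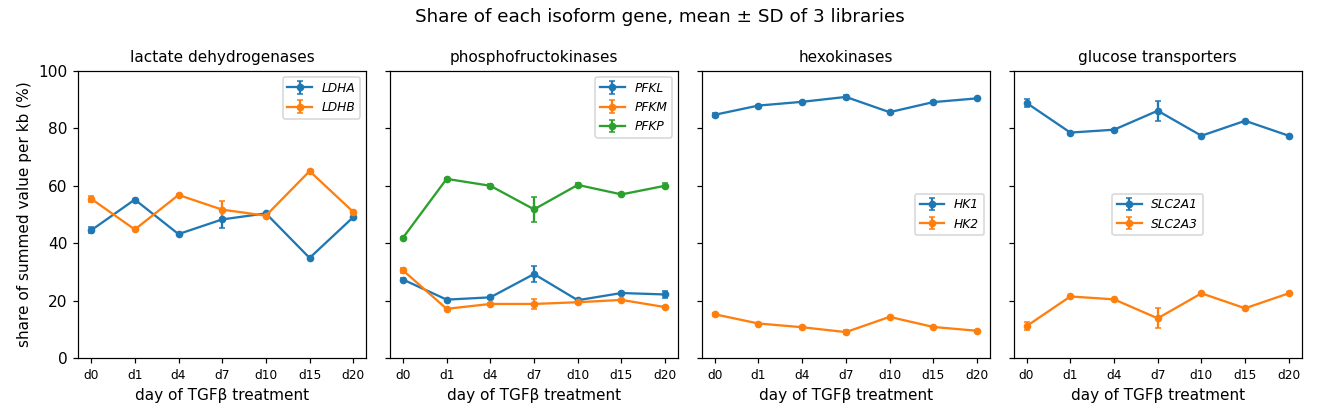
Share of each gene in the summed value per kilobase of its set (vertical axis, %, mean ± SD of 3 libraries) for the lactate dehydrogenases, phosphofructokinases, hexokinases and glucose transporters at each timepoint (horizontal axis). *LDHA* ran from 55.2% at d1 to 34.9% at d15, and *PFKP* from 41.9% at d0 to 62.4% at d1.

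*SLC16A3* (MCT4), which exports lactate, was 835, 852 and 847 at d0, 2140, 1891 and 2148 at d1, 2095, 2159 and 2190 at d4 and 1697, 1599 and 2614 at d7. Thereafter it was 2342, 2303 and 2121 at d10, 1777, 1650 and 1750 at d15 and 2641, 2443 and 2310 at d20. Every treated library was well above the untreated ones, with log2 folds from 1.03 ± 0.11 at d15 to 1.54 ± 0.11 at d20 (limma adjusted p = 2.98e-08 and 8.72e-11), and 0.96 at d7 without library c in place of 1.19. *PDK1*, a kinase that inhibits pyruvate dehydrogenase, was 576, 606 and 628 at d0, 642, 647 and 647 at d1, 362, 328 and 316 at d4 and 257, 316 and 396 at d7. It was 554, 552 and 592 at d10, 239, 195 and 220 at d15 and 474, 483 and 499 at d20. *PDK1* was lower at d4 (-0.85 ± 0.10), d7 (-0.92 ± 0.10), d15 (-1.47 ± 0.10) and d20 (-0.31 ± 0.10) and was not called at d1 or d10 (limma adjusted p = 2.39e-11 at d15 and 0.437 at d10). Thus the lactate exporter stayed high on the days when *LDHA* and *PDK1* were low.

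Carbonic anhydrases hydrate CO2 at the cell surface and so take part in pH control, and *CA9* is among the most widely used markers of HIF activity. *CA9* was 1756, 1824 and 1763 at d0, 483, 441 and 494 at d1, 76.8, 62.3 and 69.5 at d4 and 336, 319 and 207 at d7. It was 90.6, 102 and 106 at d10, 54.1, 46.1 and 49.7 at d15 and 147, 136 and 127 at d20. No treated library came near the untreated ones. Mean levels were 1781 ± 37.2 at d0 and 49.97 ± 3.98 at d15 (SD, n = 3), a log2 fold change of -5.13 ± 0.13 (limma adjusted p = 1.04e-18), and 16 genes (0.12% of those tested) were called at least as low on any day. The course was not steady, since *CA9* rose from d4 to d7 and by 1.44 ± 0.13 from d15 to d20 and fell in each of the other steps.

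*CA12*, its membrane-bound relative, was 2021, 2053 and 2132 at d0, 2983, 2973 and 2886 at d1, 2895, 2914 and 2826 at d4 and 5519, 5468 and 2934 at d7. It was 1931, 1988 and 2049 at d10, 2175, 2088 and 2153 at d15 and 2071, 1922 and 1978 at d20. Libraries of d1, d4 and d7 were above the untreated range and those of d10, d15 and d20 overlapped it. The fold at d7 was 1.11 ± 0.14 (limma adjusted p = 4.07e-07) with all 3 libraries and 1.41 without library c, which held 2934 against 5519 and 5468. *CA9* and *CA12* were called in opposite directions at d1, d4 and d7, but at d4 *CA12* was 0.48 as deposited and 0.28 after rescaling, no longer called (limma adjusted p = 0.065).

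*NDRG1*, a stress-responsive gene used as a hypoxia marker, was 11135, 11962 and 12546 at d0, 26183, 25750 and 25412 at d1, 32500, 31983 and 31558 at d4 and 35782, 34067 and 25472 at d7. It was 17631, 19380 and 17561 at d10, 34163, 32868 and 32746 at d15 and 22339, 20717 and 21132 at d20. All treated libraries exceeded d0, by 1.49 ± 0.08 at d15 and by 0.61 ± 0.08 at d10, the largest and the smallest fold (limma adjusted p = 3.41e-13 and 8.09e-07). *ADM*, the secreted peptide adrenomedullin, was 47.2, 50.9 and 41.5 at d0, 51.2, 42.0 and 52.6 at d1, 163, 151 and 162 at d4 and 109, 82.4 and 151 at d7. It was 46.8, 51.5 and 34.2 at d10, 105, 100 and 97.4 at d15 and 45.6, 45.3 and 68.5 at d20. *ADM* exceeded the untreated range at d4 (1.75 ± 0.19, limma adjusted p = 5.12e-08), d7 (1.24 ± 0.19) and d15 (1.10 ± 0.19) and overlapped it at d1, d10 and d20. At d4 and d15, when *NDRG1* and *ADM* were called higher, 4 of the 5 three-carbon genes were called lower, the exception being *ENO2*.

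*EGLN3*, a prolyl hydroxylase that marks HIF α for degradation and is itself a HIF target, was 135, 142 and 121 at d0, 275, 250 and 240 at d1, 73.6, 58.4 and 48.0 at d4 and 249, 270 and 148 at d7. It was 182, 211 and 169 at d10, 105, 93.2 and 87.0 at d15 and 172, 173 and 147 at d20. It was higher at d1 (0.94 ± 0.17) and d7 (0.70 ± 0.17) and lower at d4 (-1.15 ± 0.17, limma adjusted p = 4.6e-06). The calls at d10 (0.49) and d15 (-0.48) were lost on leaving out d0 library c or d10 library b (0.43 and 0.41), and d0 library b or d15 library c (-0.43 and -0.42). After rescaling, *EGLN3* at d10 was 0.27 and not called. *EGLN3* and *ADM* moved in opposite directions from d1 to d4, by -2.09 ± 0.17 and 1.69 ± 0.19 (limma adjusted p = 2.01e-09 and 1.69e-07).

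*BNIP3* and *BNIP3L* encode receptors for the removal of mitochondria by autophagy. *BNIP3* had means from 1461 ± 41.8 at d15 to 2063 ± 38.8 at d10, and was called higher at d1 (0.25), d10 (0.35) and d20 (0.19, but -0.01 after rescaling) and lower at d4 (-0.14), d7 (-0.10) and d15 (-0.15). The d1 call was lost after rescaling (0.06), and the d7 call without d0 library b or d7 library b (-0.09). *BNIP3L* had means from 1856 ± 41.2 at d10 to 2795 ± 73.9 at d15, and was called higher at d4 (0.24), d7 (0.29), d15 (0.49) and d20 (0.32) and lower at d10 (-0.10, lost without d0 library c or d10 library a), and its d4 call was lost after rescaling (0.04). *KDM3A*, a histone demethylase, and *P4HA1*, a collagen prolyl hydroxylase, were called higher on all 6 days, *KDM3A* by 0.22 at d20 to 0.73 at d4 and *P4HA1* by 0.13 at d7 to 0.69 at d15. Rescaling ended the calls of *KDM3A* at d1 (0.11), d10 (0.07) and d20 (0.02) and gave 0.00 for *P4HA1* at d1 and -0.06 at d7. The d7 call of *P4HA1* was also lost after quantile normalization (0.07) and without d0 library c (0.09). *ANKRD37* had few reads, with 5.9 to 22.4 in all libraries, and its calls at d7 (0.80) and d15 (0.79) were lost without any of several libraries, d7 library c among them (0.64, limma adjusted p = 0.128), after rescaling (0.63 and 0.65) and after quantile normalization (0.50 and 0.48).

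Neither HIF α subunit changed 2-fold on any day. *HIF1A* was 5450, 5224 and 5473 at d0, 5571, 5636 and 5516 at d1, 5055, 4982 and 4830 at d4 and 6052, 5916 and 5571 at d7. It was 5084, 5274 and 5242 at d10, 4435, 4386 and 4154 at d15 and 5101, 5316 and 5317 at d20. Its mRNA was lower at d15 (-0.32 ± 0.04, limma adjusted p = 8e-08) and d4 (-0.12 ± 0.04) and higher at d7 (0.12 ± 0.04, but -0.07 after rescaling and 0.07, not called, after quantile normalization). Rescaling and quantile normalization also called *HIF1A* lower at d10 (-0.28 and -0.26) and at d20 (-0.24 and -0.19). *EPAS1* (HIF-2α) was 2040, 2048 and 2142 at d0, 2667, 2539 and 2508 at d1, 3481, 3687 and 3620 at d4 and 3547, 3198 and 2466 at d7. It was 1504, 1631 and 1530 at d10, 3200, 3168 and 3141 at d15 and 2179, 2178 and 2207 at d20. *EPAS1* was higher at d1 (0.31 ± 0.08), d4 (0.79 ± 0.08), d7 (0.55 ± 0.08) and d15 (0.61 ± 0.08) and lower at d10 (-0.42 ± 0.08, limma adjusted p = 6.7e-05), and the d10 libraries fell below the untreated range. The d1 call was lost after rescaling (0.11) and after quantile normalization (0.16). At d15, therefore, *HIF1A* was at its lowest mean while *EPAS1* stood above d0.

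Genes that act around these 34 were read from lists of the same pathways. The shares of all genes tested were 36.9% higher and 35.3% lower at d4, and 39.2% and 37.3% at d15. After rescaling these shares were 25.8% and 49.5% at d4, and 30.3% and 47.2% at d15. Of 29 further genes of glycolysis and pyruvate use, 20 were tested, and 14 were lower and 2 higher at d4, and 14 lower and 3 higher at d15 (median -0.41). *PKM*, the pyruvate kinase of most tissues, listed under its older symbol PKM2, had means of 46972 ± 1975 at d0, 67602 ± 1114 at d1 and 24202 ± 478 at d15 (SD, n = 3), log2 folds of 0.53 at d1 and -0.96 at d15 (limma adjusted p = 1.65e-10 and 2.64e-15). Its levels at d10 and d20 were 0.59 and 0.42 above d0, and at d4 it was -0.14 (-0.33 after rescaling). After quantile normalization the *PKM* folds at d1 and d10 were 0.02 and 0.06, and that at d15 was -1.42. *SLC16A7* (MCT2), a monocarboxylate transporter, fell on every day, with -2.17 at d7, *DLD*, a subunit of pyruvate dehydrogenase, stood at -1.05 at d15, and *ENO3*, the muscle enolase, was lower at d10 (-1) and higher at d15 (0.96).

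In the pentose phosphate pathway, 8 of 9 genes were tested and 5 were lower and 3 higher at d15, with *PGD* at -1.11, *TALDO1* at -0.80 and *RPE* at -0.79. Of 10 tested genes of gluconeogenesis and glycogen, 4 were higher and 6 lower at d15, among them *PPP1R3C*, a glycogen-targeting phosphatase subunit, at 1.26, *PC*, pyruvate carboxylase, at -1.37 and *PGM2* at -0.85. Of 9 tested genes that control HIF, 2 were higher and 5 lower at d4 (0 and 7 after rescaling), with *EGLN1*, the main HIF prolyl hydroxylase, at -0.74. *RBX1*, part of the VHL ligase, was -0.74 at d15, and *CITED2* was -0.65 at d10. Of 25 further hypoxia-responsive genes, 16 were higher and 5 lower at d4 (14 and 8 after rescaling), and 13 were higher and 7 lower at d15 (12 and 10). *BHLHE40*, a transcriptional repressor, rose by 2.51 at d4, *P4HA2*, a collagen prolyl hydroxylase subunit, by 2.09 at d15, and *BHLHE41*, a relative of *BHLHE40*, was -2.08 at d10.

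The 34 genes together took 2.45% of the summed normalised value of a library at d0, 2.33% at d1, 1.79% at d4 and 2.13% at d7. Their share was 2.26% at d10, 1.73% at d15 and 2.29% at d20 (SD up to 0.0527, at d7). *GAPDH* weighs heavily in it, with a mean of 198246 at d0, where the 34 genes summed to 442500 to 458400. Without d7 library c, 17 of the 34 were called higher and 13 lower at d7 (4915 and 4584 of the 13343 genes tested). On that day the fold of *EGLN3* was 0.97 without this library and 0.70 with it, that of *EPAS1* 0.70 and 0.55, that of *NDRG1* 1.56 and 1.41, that of *ADM* 1.01 and 1.24, that of *CA9* -2.44 and -2.66, that of *PDK1* -1.08 and -0.92, that of *LDHA* -0.55 and -0.41, and that of *ENO1* -0.56 and -0.45, each called both ways. Fitted with the libraries of d0 and d7 only, the d7 calls of *ALDOA*, *PGK1*, *PGAM1*, *BNIP3*, *P4HA1*, *HIF1A* and *ANKRD37* were lost.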

How the data were processed

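RNA-seq reads of 21 libraries, 3 per timepoint, were turned into 1 table of normalised values by the authors. The deposited signal values are read counts per gene divided by a size factor per library, and dividing by the worth of 1 read gave whole reads for at least 99.976% of values (tolerance 0.0055). STAR 2.7, Salmon 1.4 and hg19 appear in the submitters' processing notes, and the annotation, counting, strand setting and normalization tool were not given in the sources used here. Libraries held 18847917 to 22667754 reads.

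Groups came from the library labels. Genes with a mean of at least 10 were kept (13343 of 23201), log2(value + 1) was fitted in 1 limma model over all 7 timepoints, and p-values were Benjamini-Hochberg adjusted over all genes tested (R 4.3.3, limma 3.58.1), with a threshold of 0.05. The code was tested on simulated data. Alternatives were another pseudocount, no filter (19546 genes), rescaling, quantile normalization, fits of 2 groups only, edgeR 4.0.16 and DESeq2 1.42.0 on the recovered reads, and leaving out each library. At d15, edgeR called 38.2% of genes higher and 38.9% lower, and DESeq2 38.6% and 36.2%. Isoform shares divided values by the length of the principal GENCODE 29 transcript. Promoters came from RefSeq (GRCh38.p14), not from hg19, and were matched by symbol. Tables and figures used Python 3.11.15, pandas 2.3.3 and matplotlib 3.10.9.

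The 34 genes and all lists were chosen with earlier results of these data known. Library values were given for genes with a 2-fold call on a day, for the HIF α subunits and for isoform sets, ranges for the others, and for other lists *PKM* and at most the 3 genes with the largest called change.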

Additional observations from a re-analysis of the deposited data

Results flagged for a closer look

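Of the 34 genes, 14 were called higher than d0 on one day and lower on another, as were 28.7% of all genes tested (3833 of 13343). The difference between the highest and the lowest called day is given on the log2 scale as a description, with no test, since the days were picked for their calls. Among the glycolysis genes, *LDHA* was 1.80 higher at d1 than at d15, *PGK1* 1.56, *PGAM1* 1.31, *PFKFB4* 1.22, *ENO1* 1.08 and *TPI1* 0.96 higher at d10 than at d15, *SLC2A1* 0.61 higher at d4 than at d20, *PFKL* 0.58 higher at d7 than at d15, and *GAPDH* 0.40 higher at d20 than at d4. Of the hypoxia genes, *EGLN3* was 2.09 higher at d1 than at d4, *EPAS1* 1.21 higher at d4 than at d10, *BNIP3L* 0.59 higher at d15 than at d10, *BNIP3* 0.50 higher at d10 than at d15, and *HIF1A* 0.43 higher at d7 than at d15. For *SLC2A1* the high day and for *BNIP3L* the low day rested on a call that was lost without 1 library (*SLC2A1* at d4 0.23 to 0.24, *BNIP3L* at d10 -0.08 to -0.09), and for *GAPDH* the high day did (0.09 to 0.11). After rescaling to equal totals, the highest day of 7 of the 14 was no longer called higher, with *PGK1* at d10 at -0.04, *TPI1* at d10 at -0.01, *GAPDH* at d20 at -0.10, *HIF1A* at d7 at -0.07, *PFKL* at d7 at 0.02, *SLC2A1* at d4 at 0.06 and *ENO1* at d10 at 0.11.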

How the results depend on the processing

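The columns of the table carry no replicate numbers. No paired analysis was possible because of this, so libraries were compared by timepoint only. Precision is limited by 3 libraries per timepoint and 1 untreated group. Counts of called genes moved by over 1.5 times under scaling alone. After rescaling to equal totals they were 10 higher and 12 lower at d1, 11 higher at d7, 9 and 13 at d10, and 9 and 13 at d20. Of all genes, 18.3% to 22.7% were then higher on these days and 49.1% to 50.8% lower. After quantile normalization they were 12 lower at d1 (34.8% of all genes), 11 and 13 at d10 (30.4% and 35.3%), and 13 lower at d20 (37.2%). The cause was not tested. Counts for steps between neighbouring timepoints, and counts with 1 library left out, stayed within 1.5 times. Rescaling added calls in the lower direction for *SLC2A1* at d1 and d10, *GPI* at d1, *PFKL* at d1, d10 and d20, and *PFKFB4* at d4 and d7. It did so too for *ALDOA* at d10 and d20, *TPI1* at d7, *GAPDH* at d1 and d10 (-0.23 on both days) and *ENO2* at d15. The others were *LDHB* at d10 (-0.27), *PDK1* at d10 (-0.32) and *HIF1A* at d10 and d20. Rescaling turned *HK1* at d10 to -0.03, *ALDOA* at d1 to -0.18, *TPI1* at d1, d10 and d20 to -0.03, -0.01 and -0.02, *GAPDH* at d7 and d20 to -0.14 and -0.10, *PGK1* at d1, d10 and d20 to -0.01, -0.04 and -0.08, *ENO2* at d4 to -0.05, *BNIP3* at d20 to -0.01, *BNIP3L* at d1 to -0.14, *P4HA1* at d1 and d7 to 0.00 and -0.06, and *HIF1A* at d1 and d7 to -0.14 and -0.07. Quantile normalization turned *HK1* at d10 to -0.07, *ALDOA* at d1 to -0.46, *TPI1* at d1 and d20 to -0.06 and -0.01, *GAPDH* at d7 and d20 to -0.52 and 0.00, *PGK1* at d1, d10 and d20 to -0.04, -0.03 and -0.10, *ENO1* at d1, d10 and d20 to -0.43, -0.34 and -0.35, *BNIP3L* at d1 to -0.10, and *HIF1A* at d1 to -0.12. Single gene values were counted as changed in sign only where either fit gave a call. Under the alternatives other than leaving out a library, 1304 were unchanged by this rule, 41 gained a call, 52 lost one and 31 changed sign. With 1 library left out, 1183 were unchanged by the same rule, 1 gained a call and 40 lost one.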
